A study of Mus musculus with 2 samples.

Results

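Histone H3 trimethylated at lysine 4 (H3K4me3) was pulled down from mouse embryonic fibroblasts. Among windows of the genome with many reads, 422 stood out because many of these reads did not match the reference perfectly. The genome of build mm8 was cut into fixed 2 kb windows on chromosomes 1 to 19, and reads were counted once per position and strand after a shift of 75 bp in their reading direction. A window was a member when it held at least 50 such reads of both libraries together and more than 25% of them had a match code other than that of a perfect 25-base match. This left 422 of the 12581 windows with at least 50 reads, or 3.35%. The members are called mismatch-rich windows here. The members were chosen by their read number and mismatch share in both libraries together, so these values are descriptions and not results.

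H3K4me3 is a mark of nucleosomes at active and poised promoters, mostly at CpG islands. Lsh, the product of the gene Hells, is an SNF2-type chromatin remodelling protein. Without it mouse cells lose much of their DNA methylation, above all at repeats and at the pericentromeric satellite DNA of mouse chromosomes. Reads from repeats are hard to place, because near-identical copies differ by only a few bases, and a read from a copy that the assembly lacks can land on another copy with mismatches.

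An Lsh-/- line and a WT (Lsh+/+) line of mouse embryonic fibroblasts were compared, with 1 library per genotype. For both, 20000000 cells were digested with micrococcal nuclease, which leaves mainly single nucleosomes, and chromatin was pulled down with an H3K4me3 antibody from Abcam. The DNA was amplified for 20 PCR cycles, cut from a gel at 200 to 400 bp and sequenced. The labels do not say how many embryos or clones the lines came from. No input library was analysed here, so enrichment of the mark in a window was not measured. With 1 library per genotype no test of the genotype was possible. Ratios of Lsh-/- over WT are therefore given with exact 95% intervals that cover counting error only, and a difference between the lines that is unrelated to Lsh cannot be told apart from one that follows its loss.

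The Lsh-/- library held 3428628 aligned reads and 2790389 distinct positions, against 2869399 and 2471782 in WT. Promoters of fibroblast genes carried few reads: exact matches to the promoter sequences of 7 of 12 fibroblast markers summed to 33 distinct reads in Lsh-/- and 19 in WT, with 11 and 5 at Vim, the 1 gene with at least 5 in both libraries. Fbn1 had 0 in Lsh-/- and 3 in WT, Col1a2 0 and 1, and Col3a1 2 and 2. Promoters of 8 markers of embryonic stem, epithelial, blood and muscle cells in the sequence table had 0 or 1 read in each library, and the endothelial gene Kdr had 10 in Lsh-/- and 3 in WT. The Hells promoter had 6 reads in Lsh-/- and 7 in WT, which says nothing about the deletion because its position in the gene is not given.

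The windows were proposed as poorly unique sequence, but the alignment scores of most of them were near the maximum. The deposited score runs from 4 to 53. Its definition was not stated, but it was lowest in the satellite-like windows described below. Whether it measures uniqueness was not tested. Copies that the assembly lacks could not enter it, so a high score does not show that a window is unique. It was taken over mismatch-free reads only, so that the mismatches of the rule could not lower it. Its median was 45 or more in 392 of the 422 members, and 50 or more in 390. Only 30 members, 7.11% (interval 4.85 to 9.99), had a median under 45. In the other 12159 windows with at least 50 reads this was so in 66, or 0.543% (0.420 to 0.690). Low scores were thus commoner among the mismatch-rich windows, but they described a small minority of them. The limit of 45 was set after the scores were seen.

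**Figure D1:**
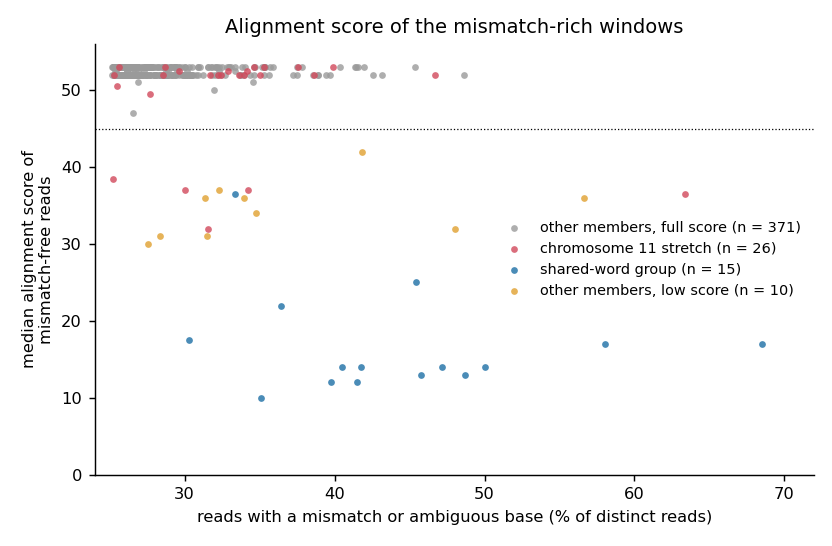
Median alignment score of mismatch-free reads (vertical axis) against the share of reads with a mismatch or ambiguous base (horizontal axis, percent of distinct reads of both libraries) for the 422 members, 1 point each. Most members lie in a band at 50 to 53, and the 15 members of the shared-word group lie under the dotted line at 45.

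The sequence itself could be read back from the reads, because the match code of a mismatched read gives the reference base. Over 342113 reference bases of the members no 2 reads disagreed. When 16-base words of this sequence were compared between members more than 10 kb apart, 15 members on 6 chromosomes formed a single group, in which each shared at least 10 words with another. The group comprised chr2:98462001-98470000 with 4 members, chr5:3000001-3004000 with 2, the chromosome 9 windows at 3000001, 3026001, 3036001 and 35054001, and those of chromosome 14 at 18208001 and 39186001. Chromosome 4 added the window at 3016001, and chromosome 11 those at 3000001 and 3004001. All but 7 of them start within the first 40 kb of assembled sequence, at 3.0 Mb of a chromosome whose earlier bases, the centromere side, are unassembled. The longest identical run between 2 chromosomes of the group is shown because it was the same letters in opposite orientation. Its first line is chr2:98464481-98464516 and its second is chr9:35054971-35055006, both on the plus strand of mm8.
chromosome 2: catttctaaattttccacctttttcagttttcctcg
chromosome 9: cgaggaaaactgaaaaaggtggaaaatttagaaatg

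The words of this group also recurred within a window. Pairs of the same 12-base word lay most often 234 bp apart. Over all base pairs covered by reads, the letters were the same in 46.4% of pairs 58 bp apart, 42.2% of pairs 118 bp apart and 42.1% of pairs 234 bp apart, against a median of 29.1% over 1280 spacings. A 234 bp unit built of shorter subunits is the textbook description of the mouse major satellite, the main repeat of pericentromeric heterochromatin. The copies below lie 234 bp apart at chr14:18209234-18209281 and chr14:18209468-18209515 on the plus strand, and capitals mark the 6 of 48 bases at which they differ.
copy 1: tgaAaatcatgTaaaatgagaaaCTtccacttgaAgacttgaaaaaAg
copy 2: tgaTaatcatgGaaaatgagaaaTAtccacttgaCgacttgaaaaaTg

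These 15 satellite-like members were AT-rich, with a median GC content of 37.8% against 58.7% over all windows with at least 50 reads. The median score of their mismatch-free reads was 14. Of their deposited reads, 72.1% (70.5 to 73.6) in Lsh-/- and 71.2% (69.5 to 72.9) in WT repeated a position and strand, against 36.2% in Lsh-/- and 30.3% in WT for windows that were no members. Repeats of a position were thus about equally frequent in both libraries and more frequent than elsewhere.

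Satellite-like members as a group held fewer Lsh-/- reads than expected from the scaling, in which the median ratio over windows marked in both libraries is set to 1. They held 902 distinct reads in Lsh-/- and 790 in WT, a ratio of 0.803 (0.729 to 0.885). With scaling by total reads the ratio was 1.01, so the direction rests on the scaling, whose choice moves every log2 ratio by 0.33. Of the 15, 2 had a log2 ratio above 0, 1 passed the rule for higher given below, and 0 the rule for lower. The largest, chr5:3000001-3002000, held 156 reads in Lsh-/- and 133 in WT, and chr2:98466001-98468000 held 125 and 122. The exception was chr11:3004001-3006000, with 47 reads in Lsh-/- and 7 in WT.

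A further pair joined the chromosome 11 stretch to chromosome 17. The windows at chr11:3022001-3024000 and chr17:3040001-3042000 shared 54 words, more than the 22 and 28 words of the other pairs outside the satellite-like group. Their longest identical run is at chr11:3023808-3023843 and chr17:3040734-3040769, again in opposite orientation.
chromosome 11: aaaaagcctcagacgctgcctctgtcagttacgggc
chromosome 17: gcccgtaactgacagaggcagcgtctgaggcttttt
The chromosome 17 window held 957 deposited but 69 distinct reads in Lsh-/-, and 484 deposited but 44 distinct reads in WT. The chromosome 11 window held 195 deposited and 40 distinct reads in Lsh-/-, and 130 and 31 in WT. In both windows the reads piled on few positions in both libraries.

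The stretch at 3.0 to 3.1 Mb of chromosome 11 held 28 members among the 48 windows with a read, more than any other stretch. Apart from the 2 satellite-like members at its start, its 26 members had a median GC content of 48.5%, and their CpG dinucleotides were at a median of 0.145 of the number expected from base composition, against 0.677 over all windows with at least 50 reads. The exception was the window with most reads, chr11:3092001-3094000, with 53.04% GC and CpG at 0.693 of the expected number, while the other 25 ranged from 0.0355 to 0.446. Reads were spread out, with a median of 19.3% in the busiest 200 bp against 31.2% over all windows. The median score was 45 or more in 21 of these 26. None of the 28 members of the stretch matched a RefSeq promoter.

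**Figure D2:**
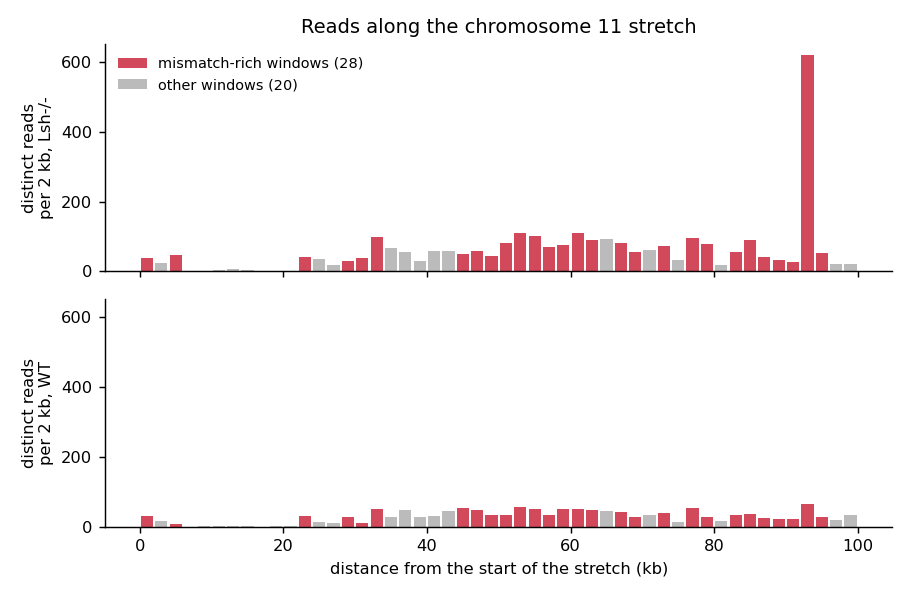
Distinct reads per 2 kb window in Lsh-/- (top) and WT (bottom) along the chromosome 11 stretch, with distance from its start in kb on the horizontal axis. Members are red and other windows grey, and a single window at 92 to 94 kb reaches 620 reads in Lsh-/-, while WT stays at or under 64 throughout.

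Over the stretch the members held 2389 distinct reads in Lsh-/- and 1050 in WT, a ratio of 1.60 (1.49 to 1.72). A single window accounted for much of it: without chr11:3092001-3094000 the reads were 1769 in Lsh-/- and 986 in WT, a ratio of 1.26 (1.17 to 1.37). The 20 windows of the stretch that were no members held 611 and 397 reads, a ratio of 1.08 (0.953 to 1.23). With scaling by total reads the ratio of the members was 2.02, and with repeated reads kept it was 2.68. With the background ratio of each 5 Mb included in the scaling it was 1.40. Of the 28, 21 had a log2 ratio above 0, 3 passed the rule for higher and 0 the rule for lower. Of all 12581 windows with at least 50 reads, 7068 were above 0, 2.09% passed the rule for higher and 1.89% that for lower. The 26 without the satellite-like pair ranged from 28 to 620 reads in Lsh-/- and from 11 to 64 in WT, so only the Lsh-/- library had a window far from the rest.

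That window, chr11:3092001-3094000, had the most reads of all 12581 windows. It held 620 distinct reads in Lsh-/- and 64 in WT, a 6.82-fold difference (5.26 to 8.96). The gap was larger in deposited reads, 3085 in Lsh-/- and 79 in WT. The deposited window lists hold further reads that are absent from the read lists, and there the window had 804 reads in Lsh-/- and 54 in WT, 10.6-fold with the further reads' own scaling. Further reads come from the same libraries and are a technical repeat, not a second culture. The excess was also seen in perfectly matching reads: with mismatch-free reads only the window held 376 in Lsh-/- and 51 in WT, 5.19-fold (3.86 to 7.09), and with a score of at least 50 as well 331 and 48, 4.85-fold (3.58 to 6.71).

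The Lsh-/- reads of the window were spread over many positions and piled up on some. They used 15.5% of the 4000 places given by its bases and both strands, against 1.60% in WT, and 50.5% lay on the forward strand against 48.4% in WT. The most used place held 223 reads in Lsh-/-, while the most used place of WT held 4. Of those 223 reads, 182 had the same sequence, and WT had 3 reads at that place. It is printed as sequenced, from chr11:3093336-3093360 on the minus strand.
most repeated read: acgaggcccggcctagcgcctccag

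**Figure D3:**
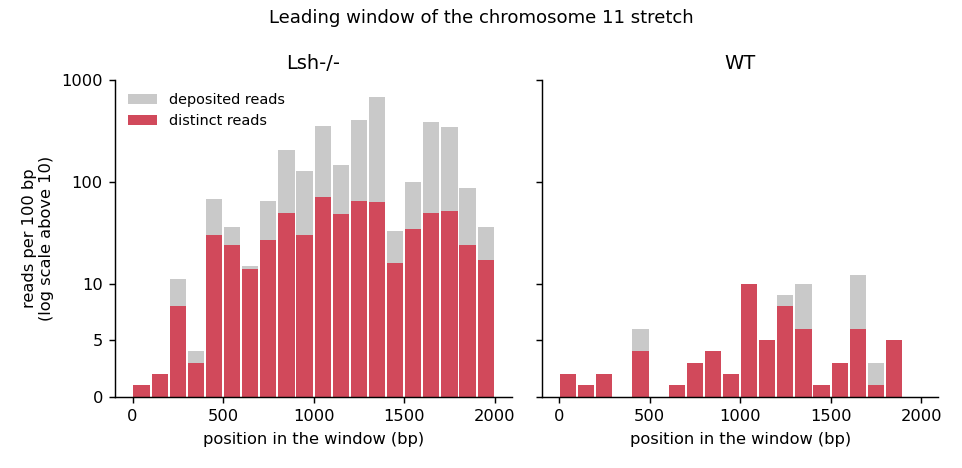
Reads per 100 bp along chr11:3092001-3094000 in Lsh-/- (left) and WT (right), by leftmost base, with all deposited reads in grey and 1 read per position and strand in red (axis linear to 10, logarithmic above). Lsh-/- reads rise from the first 400 bp to the second kb of the window and reach 70 distinct and 672 deposited reads per 100 bp, while WT has at most 10 distinct reads.

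Mismatches were more frequent in this window in Lsh-/-, where 39.4% of distinct reads carried one, than in WT, where 20.3% did. The rule used this share in both libraries together, and most reads of the window came from Lsh-/-. The difference is therefore a description and not a result. Sites are named by the reference base, the mm8 position and the base in the reads. At 10 sites at least 3 distinct reads carried the same other base and made up at least 80% of the reads there. Over these sites 93 of 99 Lsh-/- reads carried it, and so did 3 of the 4 WT reads. The sites were chosen on the share in both libraries together, so nothing was read from this about how alike the libraries were. Among the sites under that share, the other base was in 10 of 12 Lsh-/- reads and 0 of 1 WT read at T3092725C, and in 9 of 10 and 0 of 2 at C3093294A. At G3093032C it was in 1 of 28 Lsh-/- reads and 2 of 2 WT reads. At the sites C3093045T, C3093059G and G3093344A, 4 of 23, 3 of 18 and 4 of 24 Lsh-/- reads carried the other base, against 0 of 3, 0 of 3 and 0 of 5 WT reads. The 200 bases shown span chr11:3093637-3093836 on the plus strand of the reference, and capitals mark 2 of the 10 sites, A3093729G and T3093744A. The other base was in 9 of 11 Lsh-/- reads at the first site and in 10 of 10 at the second, and WT had no read over either.
leading window: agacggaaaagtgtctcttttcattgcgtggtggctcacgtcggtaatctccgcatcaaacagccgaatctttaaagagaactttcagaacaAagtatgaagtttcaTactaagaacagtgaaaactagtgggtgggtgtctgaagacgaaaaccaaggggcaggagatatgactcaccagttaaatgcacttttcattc

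By the rule that follows, the libraries differed over all 422 members about as often as in other windows. To be called higher or lower, a window needed at least 20 reads, a ratio at least 2-fold from 1 and an interval that excluded 1. By this rule 13 members were higher in Lsh-/-, 3.08% (1.65 to 5.21), against 2.09% of all windows with at least 50 reads. Without the leading window 12 were higher, or 2.85%. Lower in Lsh-/- were 11, or 2.61% (1.31 to 4.62), against 1.89%. Scaling by total reads gave 35 higher and 5 lower members, and called 6.89% of all these windows higher and 1.05% lower. The median log2 ratio was 0.08 over members and 0.06 over all windows. Both shares were near the background, so nothing was read from them about the members. Some other settings gave shares further from the background, as listed in the closing part.

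**Figure D4:**
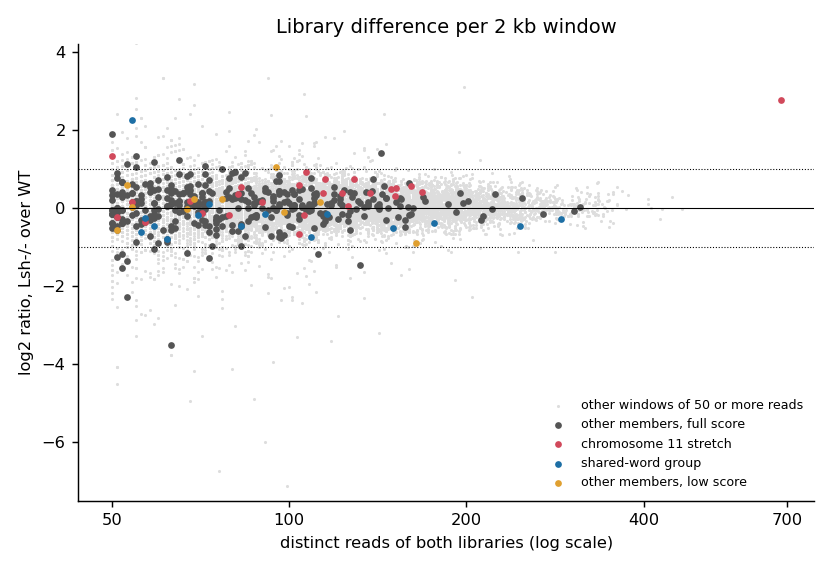
Log2 ratio of Lsh-/- over WT (vertical axis) against distinct reads of both libraries (horizontal axis, logarithmic) for members by class and for other windows of at least 50 reads in light grey, without the 2 that had 0 WT reads. Dotted lines mark 2-fold, and the point at 684 reads and a log2 ratio of 2.77 is chr11:3092001-3094000.

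Among the highest members by the interval bound nearest to 1, chr5:39930001-39932000 held 113 reads in Lsh-/- and 30 in WT, 2.65-fold (1.76 to 4.11), with 117 and 33 further reads. In the window chr12:36116001-36118000 there were 42 reads in Lsh-/- and 8 in WT, 3.69-fold (1.71 to 9.11). The window chr11:69738001-69740000, with 43 and 12, 2.52-fold (1.31 to 5.25), matched the promoter of Eif5a, a translation factor. The satellite-like chr11:3004001-3006000 completed this set at 4.72-fold (2.12 to 12.4). All 4 had more reads in Lsh-/- in the further reads too.

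The lowest member was chr8:95248001-95250000, with 7 reads in Lsh-/- and 56 in WT, 11.4-fold lower (5.17 to 29.6). Its further reads were 4 in Lsh-/- and 39 in WT. At chr11:72118001-72120000 there were 12 reads in Lsh-/- and 41 in WT, 4.86-fold lower (2.50 to 10.1). The remaining 3 were chr2:144858001-144860000 with 17 and 35 reads, chr17:39452001-39454000 with 45 and 87, and chr17:23312001-23314000 with 43 and 69. In the further reads all 13 higher and all 11 lower members kept their direction, and 9 and 8 of them were again 2-fold apart.

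The lower window on chromosome 17 belonged to a stretch of 4 adjoining members, chr17:39450001-39458000. The stretch held 191 reads in Lsh-/- and 276 in WT, a ratio of 0.487 (0.403 to 0.588), and 0.613 when scaled by total reads. It was GC-rich at 65.3%, and 35.1% of its Lsh-/- reads and 33.7% of its WT reads carried a mismatch. Both libraries thus carried mismatches alike in the stretch that was lower in Lsh-/-.

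The other stretches with most reads had ratios within 1.5-fold of 1. They were chr2:98462001-98470000 with 310 reads in Lsh-/- and 291 in WT, chr17:24998001-25002000 with 215 and 161, chr5:3000001-3004000 with 186 and 162, and chr19:38108001-38122000 with 199 and 127. Next came chr1:90108001-90110000 with 184 and 128, chr11:74994001-75008000 with 167 and 116, and chr17:17328001-17330000 with 151 and 119. Some matched promoters of known genes. Among these were Hjurp on chromosome 1, the chaperone of the centromeric histone CENP-A, Lnpep, a membrane aminopeptidase, at 17328001 on chromosome 17, and Myof and Cep55 on chromosome 19, which act in membrane repair and in the last step of cell division. Ovca2, a serine hydrolase, at 74994001 on chromosome 11 had 20 matching reads, and the predicted gene Gm17801 at 25000001 on chromosome 17 had 4.

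Of the 375 stretches made by joining members within 10 kb, 357 were single windows, so most members were isolated. Members just inside the limit had 40 mismatched of 159 reads, 33 of 131 and 30 of 119, and the nearest windows outside had exactly 25%, of which there were 50. At the other limit 13 members had 50 reads, and 6 windows with 49 reads exceeded 25%. The mismatch share was 25 to 27% in 185 members, 27 to 30% in 118, 30 to 40% in 95 and over 40% in 24. Members thus crowded against the limit, and a further 1812 windows lay between 20 and 25%.

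Many mismatches of the members recurred, which is a description, since the rule chose on mismatches. Of 12337 mismatches in members, 3330 sat where another distinct read carried the same other base, against 9773 of 245247, or 3.98%, in other windows. Such recurrent sites numbered 932 in members, of which 589 were in both libraries. Consistent sites, with at least 3 reads and at least 80% of the reads over the site, numbered 306 in 159 members, 37.7%, and were found in 2.22% of other windows. They were in 20.0% of the members with a mismatch share of 25 to 27%, and in 66.3% of those with 30 to 40%. In 142 members no site had a second read with the same mismatch.

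Outside the low-score members, an example with the same other base in both libraries was the Hjurp window on chromosome 1. Its 90 bases shown span chr1:90108397-90108486 on the plus strand, and capitals mark T90108409C and T90108475G, named as above.
Hjurp window: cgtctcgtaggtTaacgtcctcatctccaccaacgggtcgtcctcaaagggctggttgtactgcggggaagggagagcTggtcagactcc
At T90108475G the other base was in 9 of 9 Lsh-/- reads and 3 of 3 WT reads, and at T90108409C in 3 of 3 and 2 of 2. In this window 43.5% of Lsh-/- reads and 38.3% of WT reads carried a mismatch, while the median score of mismatch-free reads was 53. A window can thus be rich in mismatches in both lines while its mismatch-free reads have the highest median score.

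The libraries could be compared at 165 sites with at least 3 reads in each. At 41 of them at least 80% of the reads carried the other base in both. At 16 it was at least 80% in Lsh-/- and at most 20% in WT, and at 8 the reverse. At 11 it was at least 80% in Lsh-/- and between these limits in WT, and at 36 the reverse, so the classes leaned in opposite directions. Over members with at least 20 reads in each library, the mismatch share in Lsh-/- minus that in WT had a median of -0.20 percentage points (interval of the median -1.53 to 1.31). As a set the members thus did not carry more mismatches in either library, while single sites did.

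**Figure D5:**
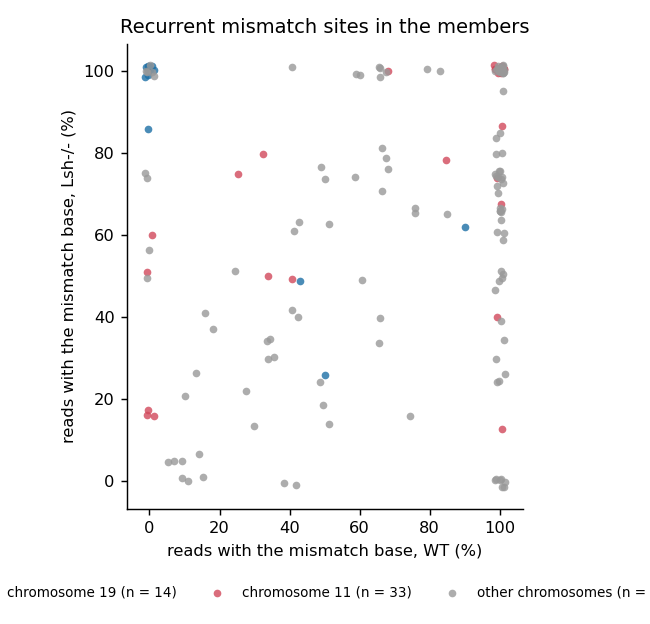
Share of reads with the other base in Lsh-/- (vertical axis, percent) and in WT (horizontal axis, percent) at the 165 sites, 1 point each, with a small random displacement so that points do not hide each other. Points at the upper right carry the other base in both libraries, and those at the upper left, at least 80% in Lsh-/- and at most 20% in WT, include 11 of chromosome 19 and 4 of chromosome 7.

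Sites with at least 3 reads of the other base in Lsh-/-, and none among at least 3 WT reads, numbered 25 in 18 members. Of these 25, 11 lay in 7 of the 18 members on chromosome 19, the chromosome of Hells, between positions 32455277 and 47143601. Chromosome 7 held 5 in 4 members between 16186266 and 23843080, and chromosome 11 held 5 in 3 members, 3 of them in the leading window. The reverse kind numbered 12 in 7 members, 0 of them on chromosome 19. The rule took both libraries together, and members held 23628 distinct reads in Lsh-/- and 15753 in WT. A window could thus pass through its Lsh-/- mismatches alone, and 3 reads with the other base were reached more easily in Lsh-/-. Both counts and their places are therefore a description and not a result. Other windows with at least 50 reads held 99 sites of the Lsh-/- kind, of which 23 in 21 windows were on chromosome 2, 19 in 18 windows on chromosome 19, 14 on chromosome 5 and 13 on chromosome 7, so other chromosomes held such sites too. The member with most Lsh-/- sites was the Cep55 window, whose reference at chr19:38120187-38120276, plus strand, is printed with G38120195C and C38120238T in capitals.
Cep55 window: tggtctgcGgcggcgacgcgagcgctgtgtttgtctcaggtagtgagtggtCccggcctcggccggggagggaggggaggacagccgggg
At C38120238T the other base was in 6 of 7 Lsh-/- reads and 0 of 6 WT reads, and at T32455277G, in the window of the promoter of Sgms1, an enzyme of sphingomyelin synthesis, in 7 of 7 and 0 of 6.

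A mismatch excess in Lsh-/- on this part of chromosome 19 was also seen outside the members, but gaps as large occurred elsewhere. Between 30 and 50 Mb, bounds chosen after the sites were seen, 12 members had a mismatch in 36.2% of Lsh-/- reads (32.6 to 39.8) and 20.4% of WT reads (17.1 to 23.9), and the share was larger in Lsh-/- in 11 of the 12. The rule took members by this share in both libraries together, so a window high in Lsh-/- alone could pass. The values of these members are therefore a description and not a result. In the 6 members elsewhere on the chromosome it was 27.3% (21.9 to 33.2) and 29.1% (22.6 to 36.3). Windows of 10 to 49 reads, which the rule could not take, had a mismatch in 17.1% of 6983 Lsh-/- reads and 14.4% of 6926 WT reads within these bounds. Outside them it was in 14.91% of 11789 Lsh-/- reads and 14.98% of 12171 WT reads. In the windows of the printed sites the intervals of the read ratio included 1. The Cep55 window held 82 reads in Lsh-/- and 54 in WT, 1.07-fold (0.749 to 1.54), and Sgms1 118 and 95, 0.874-fold (0.661 to 1.16). Other members within the bounds varied, with Myof at 1.32-fold (0.861 to 2.07) and Hps1 at 0.647-fold (0.424 to 0.986).

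Members were unevenly placed along the genome. Chromosome 12 had the highest share of members among its windows with at least 50 reads, 6.50%. Chromosomes 17, 11 and 13 followed with 6.49%, 6.41% and 6.20%, and chromosome 8 was lowest with 1.36%. In 10 bins of 10 Mb, picked because at least 5 and at least 6% of their windows were members, 115 of 920 windows were members, against 279 of 11661 in the remaining bins, members of the chromosome 11 stretch not counted. A consistent site was present in 75 of those 115 and in 59 of the 279. Windows of 10 to 49 reads in these bins had mismatches in 17.2% of Lsh-/- and 16.9% of WT reads, against 15.1% and 15.5% elsewhere. Other bins ranged from 12.1 to 21.5% in Lsh-/-, so these values lay within the spread of bins.

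Genes could be named only where whole reads matched a promoter sequence of RefSeq (GRCm38.p6, 300 bases around a gene's start) exactly, since no annotation of mm8 was used here. With at least 3 distinct reads in one line along the promoter, 165 members, 39.1% (34.4 to 43.9), matched 196 genes, against 48.0% (47.1 to 48.9) of other windows. Members had by the rule a smaller part of perfectly matching reads, and a median of 81 reads against 104 in other windows. The 2 shares are therefore not like for like. Only 2 of the 30 low-score members had a match, to Taf1b, a subunit of the RNA polymerase I factor SL1, and Zfp759, a zinc finger gene. Genes of the Zfp series numbered 7, and there were 0 histone, ribosomal protein, protocadherin and olfactory or vomeronasal receptor genes. The 6525 genes of other windows included 166 of the Zfp series, 41 ribosomal protein, 9 histone, 3 protocadherin and 0 receptor genes. These families were thus rare there too, and nothing was read from the counts. Of the 165 members with a match, 163 had a median score of 45 or more.

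The 15 promoters with most matching reads had 23 to 36 of them, and none was called higher or lower, with log2 ratios of -0.88 to 0.68. They were Gm35410, Cryzl1, C130046K22Rik, Ubr1, Ppil1, Wbp4, Zfp523, Fyco1, Gm33937, Nubp2, 9430065F17Rik, Wipf2, Erap1, Ercc6l2 and Kank1. Ubr1, a ubiquitin ligase that recognises the first residue of proteins, had 41 reads in Lsh-/- and 34 in WT in its window, with a mismatch in 29.3% and 29.4%. Ppil1, a cyclophilin of the spliceosome, had 110 and 50 reads, and Wbp4, another spliceosome protein, had 69 and 54. Erap1, the aminopeptidase that trims peptides for MHC class I, had 37 and 25 reads, with a mismatch in 18.9% of Lsh-/- and 36.0% of WT reads. At Kank1, a regulator of the actin cytoskeleton, there were 24 reads in Lsh-/- and 31 in WT. Of all 196 genes, 4 lay in a member called higher and 2 in one called lower. Among the 4, Tmem267 and 3110070M22Rik shared a window. Of all windows with at least 50 reads 2.09% were called higher and 1.89% lower, so nothing was read from these counts about the genes.

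Among deposited reads of all members, 42.4% in Lsh-/- and 35.1% in WT repeated a position, against 36.2% and 30.3% in other windows. The excess lay in the low-score members, where 70.7% of Lsh-/- and 69.2% of WT reads were repeats, and in the leading window. Members with full scores outside the chromosome 11 stretch were at 34.1% in Lsh-/- and 28.5% in WT, under the other windows. Apart from low-score members and 1 window, mismatch-rich windows were thus not richer in repeated positions.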

How the data were processed

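Chromatin of 1 Lsh-/- and 1 WT line was sequenced as 25-base reads. The authors deposited 1 list of aligned reads per library, with position, strand, match code and an alignment score per read, and a list of whole-number read counts per 200 bp. The build is mm8, per the submitters' processing notes, while no aligner is named in the sources used here. The members and lists were chosen with earlier results of these data known. Distinct reads were shifted by 75 bp from their 5′ end and counted per window. Ratios were divided by 1.42, the median ratio over windows marked in both libraries. Intervals are exact (Clopper-Pearson), at 95%, and cover counting error only, since PCR reads without molecular identifiers are not independent. Further reads are the deposited counts minus those made from the read list with a shift of 100 bp. Reference bases came from reads and match codes, and promoter sequences from RefSeq. Named are the chromosome 11 stretch, the 8 other stretches with most reads, the 5 highest and 5 lowest members, the windows nearest the limits and 15 promoters, and sites and windows outside these were named after their values were seen. Classes of members were made after the data were seen. The calling rule and the reading of match codes were tested on simulated data. Python 3.11.15, pandas 2.3.3, numpy 2.4.6 and scipy 1.17.1 were used.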

Additional observations from a re-analysis of the deposited data

How the results depend on the processing

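No paired analysis was possible because each genotype had 1 library. Scaling by total distinct reads gave 35 higher and 5 lower members, a median log2 ratio of 0.41 and a ratio of 2.02 for the chromosome 11 stretch, and with repeated reads kept that ratio was 2.68. With perfectly matching reads only, 21 members were higher and 16 lower, against 2.31% and 2.14% of all windows with at least 50 reads. Both shares of the members were above this background. Shares called over all windows of each minimum follow as background. A limit of 20% for the mismatch share gave 2234 members, 45 higher and 46 lower, with 34.5% repeated positions, and a limit of 30% gave 119, 4, 5 and 52.6%, with 2.09% higher and 1.89% lower as background for both. A minimum of 30 reads gave 787 members, 31 higher and 56 lower, with 36.3% repeated positions (higher and lower in the background, 3.22% and 3.97%). The share of members called lower was thus above the background there. It was also above the background with the limit of 30% and with the rule applied to repeated reads. A minimum of 100 reads gave 140, 2, 2 and 45.3% (background 0.856% and 0.691%). Repeated positions were 39.2% with windows shifted by 1 kb, and 42.0% with the rule applied to repeated reads, which also gave 18 lower members (background 2.36%) and a median mismatch difference of 1.44 percentage points. Recurrent sites held 19.7% of mismatches with at least 3 reads per site, and 85 members matched a promoter with at least 10 reads. Alternatives chosen after seeing the data gave 37.7% repeated positions without the leading window, and median log2 ratios of 0.20 for members with at least 2 consistent sites and -0.16 for low-score members. The median score of mismatch-free reads was 52 under all 8 other member rules, and the same-direction share of called members was 100% with at least 10 or 20 further reads. Depth limits single windows: a member with 41 reads in Lsh-/- and 14 in WT, 2.06-fold, had an interval of 1.10 to 4.09.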

Other observations

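The median log2 ratio of members differed between chromosomes, from -0.40 over the 15 members of chromosome 16 to 0.37 over the 8 members of chromosome 18, with 0.29 over the 80 of chromosome 11 and -0.28 over the 11 of chromosome 15. Other windows with at least 50 reads had medians of -0.24, 0.49, 0.23 and -0.04 on chromosomes 16, 18, 11 and 15, each with the sign of the members. The signs differed on chromosomes 1, 3, 14 and 17. There the medians were -0.02, 0.04, -0.11 and 0.02 over members, against 0.23, -0.03, 0.12 and -0.08 over other windows. In the chromosome 11 stretch, chr11:3098001-3100000 was no member and was lower in Lsh-/-, with 20 reads in Lsh-/- and 35 in WT, 4 kb past the end of the window with the largest excess. In the same stretch chr11:3036001-3038000, also no member, held 56 reads in Lsh-/- and 48 in WT and was its 1 window with exact matches to a RefSeq promoter, that of the predicted gene Gm33862.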
